A study of Homo sapiens with 12 samples.

Results

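POU5F1, SOX1, GJB1, CD4 and MME are marker genes of cells other than hepatic stellate cells (HSCs) or, for MME, of stromal and several other cells. They are 5 of the 199 genes measured in LX-2, an established line of activated human HSCs, and they were chosen by name because earlier work on the same counts had looked at their levels against the negative control probes and at 48 h against 24 h. Those levels and that time comparison are therefore given as descriptions without tests, while miR-25 against control was tested. LX-2 cells were transfected in 6-well plates with Lipofectamine LTX and 10 pmol/ml of a miR-25 mimic, or with the same amount of a control mimic built on a Caenorhabditis elegans sequence, and RNA was taken 24 h or 48 h later. There were 4 groups of 3 samples: control 24 h, miR-25 24 h, control 48 h and miR-25 48 h. A control and a miR-25 sample with the same replicate letter and transfection efficiency are called a pair, and all cells of all groups, controls included, went through a transfection. The share of transfected cells in a parallel well was 0.59 to 0.81 at 24 h and 0.42 to 0.65 at 48 h, and the labels give miR-25 in the treated samples as 62.3 to 350.1 times its control at 24 h and 347 to 681 times at 48 h. As a model this is 1 line, so the 12 samples are wells of the same cells and p-values measure only the spread between them.

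HSCs store vitamin A in the healthy liver and become collagen-producing cells on injury. POU5F1 encodes OCT4, a transcription factor that keeps embryonic stem cells pluripotent, and SOX1 encodes a transcription factor of neural progenitors. GJB1 encodes connexin 32, the gap junction protein through which hepatocytes are coupled. CD4 is the co-receptor of helper T cells and is also found on macrophages. MME encodes neprilysin (CD10), a membrane peptidase that is present on many stromal cells as well as on early lymphoid cells.

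In the nCounter assay a pair of probes binds a stretch of 100 bases in each transcript, and the fluorescent barcodes of bound probes are counted 1 by 1 without amplification. The target stretches show which part of each transcript the counts stand for. Those of GJB1 and CD4 lie in the coding sequence and are printed whole, those of POU5F1 and SOX1 by their first 30 bases, and that of MME by bases 71 to 100, where capitals mark the letters TGCAAT.

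POU5F1 (NM_002701.4): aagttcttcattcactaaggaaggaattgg

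SOX1 (NM_005986.2): tatttatcacctacggaggaagcggaaagc

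GJB1 (NM_000166.5): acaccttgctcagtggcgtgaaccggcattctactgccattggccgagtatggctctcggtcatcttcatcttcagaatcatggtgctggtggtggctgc

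CD4 (NM_000616.3): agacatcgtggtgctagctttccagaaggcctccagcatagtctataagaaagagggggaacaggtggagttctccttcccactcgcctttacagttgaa

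MME (NM_000902.2): tgaccttgggtattTGCAATattcctttgg

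The mature miR-25-3p, with its seed (bases 2 to 8) in capitals, is given by RefSeq on GRCh38.p14 at chr7:100093571-100093592, minus strand.

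hsa-miR-25-3p: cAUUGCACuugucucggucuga

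The letters that pair with the whole seed, GTGCAAT, were in 0 of the 193 target stretches at hand. Their overlapping shorter forms TGCAAT (bases 2 to 7) and GTGCAA (bases 3 to 8) were in 3 (1.55%) and 7 (3.63%), and among the 5 genes MME alone held them, both of them. Only the transcript strand of the target stretch was searched, so the rest of each transcript was not examined. The G and C content of the 5 stretches was 49% to 55%, within the 37% to 65% of the panel (median 51%). POU5F1 has near-identical copies elsewhere in the genome, and whether its probes separate them is not given in the sources used here.

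The total over the genes was 321243 to 409581 counts at 24 h and 107377 to 200821 at 48 h, and the positive control probes were 1.51-fold and the negative ones 1.54-fold higher at 24 h, so that time point, transfection and depth cannot be told apart. Levels are therefore given as counts and as counts per 100000 gene counts. The pair of 48 h replicate 1, with the lowest transfection share, stood apart. Its CXCL12 was 335 (control) and 208 (miR-25) per 100000 against 2976 to 3263 in the other 48 h samples. Results that rest on it are given with and without it.

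A count was called above background when it exceeded the mean plus 2 SD of the 8 negative probes of the sample. This level was 10.2 to 16.5 counts at 24 h and 5.52 to 8.40 at 48 h, while the faintest positive probe had 67 to 75 and 39 to 53 counts. By this measure 132 of the 199 genes (66.3%) were above background in all 12 samples, and so were 2 of the 5, POU5F1 and MME. CD4 was above it in 11 samples, GJB1 in 10 and SOX1 in 8. The plot of counts by sample shows MME far from the other 4 genes, whose counts were 0.357 times (SOX1) to 4.68 times (CD4) the level of their sample. MME thus goes against a description of the 5 as near background.

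**Figure D1:**
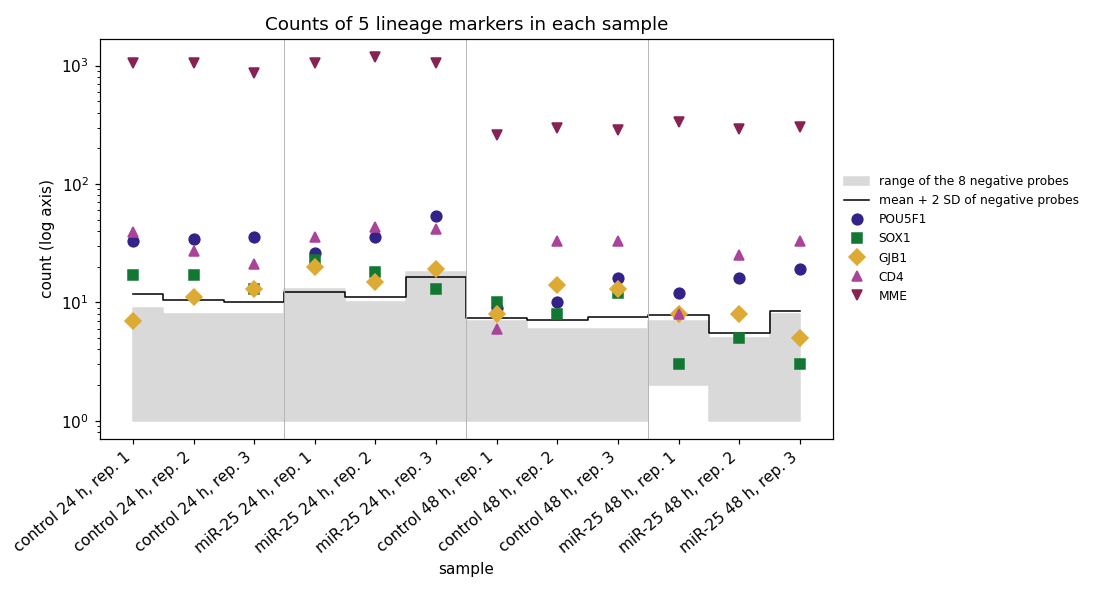
Counts of the 5 genes in each of the 12 samples on a log axis, with the range of the 8 negative probes (grey) and their mean plus 2 SD (line). MME lies at 261 to 1181 counts, while the other 4 genes lie between 3 and 54 counts, around the line or a few times above it.

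POU5F1, the pluripotency factor, had 33, 34 and 36 counts in the controls at 24 h and 26, 36 and 54 in the miR-25 samples. At 48 h it had 9, 10 and 16 counts in the controls and 12, 16 and 19 with miR-25. All 12 values were above background, by 1.22 to 3.54 times, and none reached the faintest positive probe: the highest was 77.1% of it. Per 100000 gene counts the group means lay between 8.07 ± 0.86 (control 48 h) and 10.1 ± 4.24 (miR-25 24 h; SD, n = 3), and neighbouring groups overlapped. At the level of the mean plus 3 SD it was above background in 11 samples.

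The other genes of the pluripotent list did not go with it. Of the 7 genes (POU5F1, SOX2, NANOG, GDF3, FOXD3, TERT and FGF4), POU5F1 alone was above background in all samples, NANOG was above it in 8 and GDF3 in 1. SOX2, the partner of OCT4 in embryonic stem cells, had 1 to 5 counts and was above background in 0 of 12 samples, as were FOXD3, TERT and FGF4. The summed level of the list was 13.9 to 31.3 per 100000 at 24 h and 17.7 to 19.96 at 48 h.

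SOX1, the neural progenitor factor, had 17, 17 and 13 counts in the controls at 24 h and 23, 18 and 13 with miR-25. At 48 h it had 10, 8 and 12 counts in the controls and 3, 5 and 3 with miR-25. The 3 miR-25 samples at 48 h were all below their background levels and below all other samples. They held a mean of 3.67 counts against 3.25 per negative probe of the same samples, and a count of 3 has an exact 95% interval of 0.619 to 8.77 (counting error only). The other sample below background was miR-25 24 h replicate 3, which had the highest background level (16.5 counts) and the highest single negative probe (18 counts). Of the other neural genes, ISL1, a factor of motor neurons and other progenitors, was above background in 11 samples and was the highest of the list at 6.10 per 100000. NCAM1, a neural cell adhesion molecule, was above it in 5 samples and S100B in 0. The list places NCAM1 with the neural genes, and whether HSCs in general also express it was not examined.

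GJB1, the hepatocyte connexin, had 7, 11 and 13 counts in the controls at 24 h and 20, 15 and 19 with miR-25. At 48 h the controls had 8, 14 and 13 counts and the miR-25 samples 8, 8 and 5. At 24 h all counts with miR-25 were higher than those of the controls, but the groups overlapped once scaled to the gene total. It was below background in control 24 h replicate 1 and miR-25 48 h replicate 3, and at the mean plus 3 SD it was above background in only 6 samples. Of the other 4 epithelial genes, KRT15, a keratin of basal epithelium, was above background in 5 samples and CDH1, the epithelial cadherin, in 1. FOXA2, a transcription factor of the endoderm and hepatocyte, and PDX1 of the pancreas were above it in 0 samples.

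CD4, the T cell co-receptor, had 39, 27 and 21 counts in the controls at 24 h and 36, 43 and 42 with miR-25. At 48 h it had 6, 33 and 33 counts in the controls and 8, 25 and 33 with miR-25. Both low values at 48 h came from the pair of replicate 1, at 5.59 and 5.15 per 100000 against 15.7 to 23.4 in the other 4 samples. The control of that pair was the only sample with CD4 below background. CD3D, a chain of the T cell receptor complex, had 1 to 10 counts and was above background in 0 samples, as was CD8B, and CD8A was above it in 1. The T cell list thus had its defining receptor gene at background, and its summed level was 10.3 to 29.1 per 100000.

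MME, the peptidase of stromal cells, had 1047, 1045 and 872 counts in the controls at 24 h and 1042, 1181 and 1059 with miR-25. At 48 h it had 261, 296 and 286 counts in the controls and 331, 291 and 301 with miR-25. Every value was 35.5 to 107 times the background level of its sample. All 8 genes of the stromal list (MME, COL1A1, CDH2, CD44, CXCL12, FGFR1, PLAU and BMP1) were above background in all 12 samples, and MME had the lowest mean of them, 236 ± 53.9 per 100000 (SD over 12 samples). CXCL12, the chemokine, and CD44, the hyaluronan receptor, were highest, with 11.4 and 6.85 times the mean count of MME. Each target has 100 bases and 1 barcode, so no correction for transcript length applies, but probes may differ in efficiency. The genes listed as stromal, COL1A1 included, were thus well above background. The list was chosen with earlier results of these data known, so this is no test of the cell type. PPARG, a gene of quiescent HSCs, was above background in 2 samples.

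The other 20 genes of the 5 lists of foreign cell types (pluripotent, neural, epithelial, T cell, and muscle, cartilage and early mesoderm) were above background in all samples for 0 genes, in some for 11 and in none for 9. In the muscle, cartilage and mesoderm list COL2A1, the collagen of cartilage, had the highest mean and was above background in 4 samples. In bulk RNA, few cells with much of a transcript and many cells with little of it cannot be told apart.

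**Figure D2:**
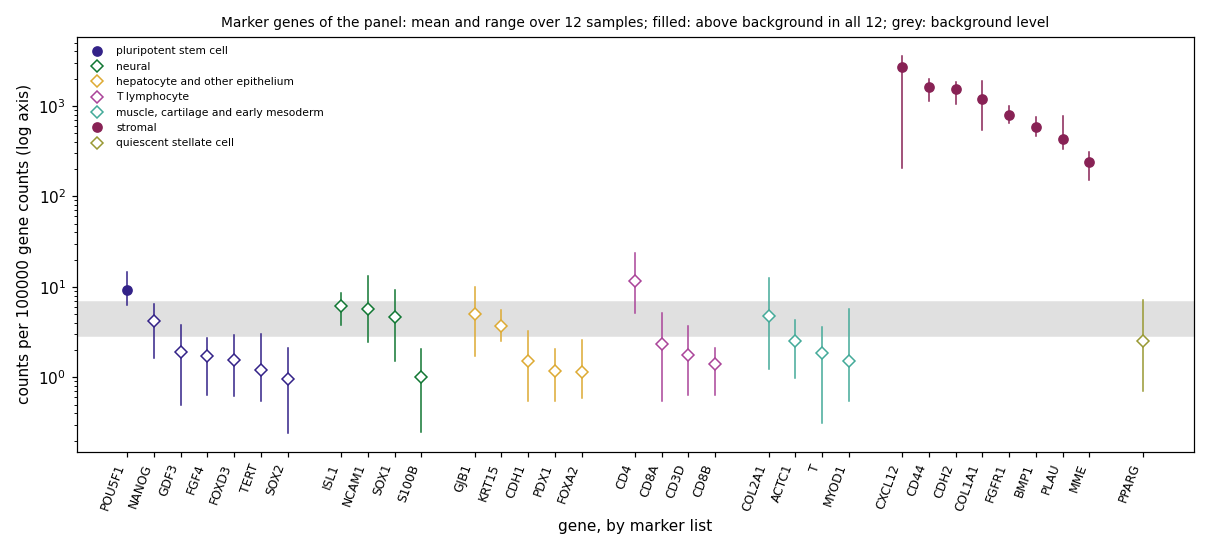
Counts per 100000 gene counts (log axis) of the genes of 7 marker lists: points are means and lines ranges over 12 samples, filled where all 12 samples were above background, and the grey band is the range of background levels. The 8 stromal genes lie far above the band, MME lowest among them, and POU5F1 is the only filled point of the other lists.

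In the order of mean scaled level among the 199 genes, MME was number 61, CD4 129, POU5F1 134, GJB1 145 and SOX1 147. MME (236) stood between WNT5B (236) and ADAM17 (228), and was above these in 4 and 8 of 12 samples. CD4 (11.6 per 100000) lay between the Notch ligand JAG2 (14.8) and the T cell factor TCF7 (11.02), and POU5F1 (9.25) just above DTX4 (8.79). GJB1 (5.00) lay below DTX1 (5.34) and above COL2A1 (4.74), and SOX1 (4.59) between COL2A1 and NANOG (4.23). None of these neighbours was higher than the gene beside it in all samples, or lower in all.

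For the 2 genes above background everywhere, the genes most like them over the 12 samples, by Pearson's r of log2 scaled counts among 131 genes, were looked up. For MME these were FZD7 (r = 0.91), RAC1 (0.90) and CDH2 (0.86), with a median of -0.24 over all 131. Within a time point (6 samples) the r of MME at 24 h and 48 h was 0.71 and 0.70 with FZD7. It was 0.52 and 0.86 with RAC1 and 0.20 and 0.55 with CDH2. Each of these was below the r over all 12 samples, and the part of the step between times was not tested. For POU5F1 the highest were CCND2 (0.66), PAFAH1B1 (0.66) and LFNG (0.60), with a median of 0.11. At 24 h these r were 0.79, 0.81 and 0.64, and at 48 h 0.39, 0.34 and 0.53. The points share libraries and depth, and no test was made.

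The time points compare cells 24 h and 48 h after transfection. Over all genes, edgeR's quasi-likelihood test called 9 of 199 (4.52%) in the controls and 6 (3.02%) in the miR-25 samples; without the pair of 48 h replicate 1 these counts were 58 and 60. For the 5 genes only values are given. MME was lower at 48 h in both arms. Its level went from 278 ± 23.8 to 203 ± 43.9 per 100000 in the controls (0.730-fold) and from 282 ± 25.1 to 182 ± 31.6 with miR-25 (0.645-fold; SD, n = 3). The 24 h and 48 h values overlapped in neither arm, as for 11.1% (controls) and 18.1% (miR-25) of all genes in that direction. Scaled by the positive control probes, MME was 2.38-fold and 2.30-fold higher at 24 h. By that scaling the median gene itself changed by -0.68 and -0.50 on the log2 scale from 24 h to 48 h. Per gene total the median gene changed by 0.09 and 0.06. Without the pair of 48 h replicate 1 the ratios of MME per gene total, 48 h to 24 h, were 0.658 and 0.590.

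SOX1 went opposite ways: 4.40 ± 0.49 to 7.18 ± 1.90 per 100000 in the controls (1.63-fold) and 4.59 ± 1.04 to 2.19 ± 0.85 with miR-25 (0.477-fold), with no overlap in either arm. The direction in the controls depended on the scaling, since by the positive probes the level was 1.05-fold higher at 24 h. The scaled level of GJB1 went from 3.00 ± 1.17 to 8.16 ± 1.55 in the controls (2.72-fold, no overlap) and went from 4.64 ± 0.69 to 4.22 ± 1.503 with miR-25 (0.911-fold). By the positive probes the ratio of 24 h to 48 h was 0.601 in the controls and 1.67 with miR-25. Without the pair of 48 h replicate 1 the ratios of 48 h to 24 h were 2.84 and 0.811 per gene total. Those of SOX1 were then 1.39 and 0.505. Values higher at 48 h without overlap were found for 17.6% of all genes in the controls. The scaled level of the negative probes was itself 1.59-fold higher at 48 h. By group it went from 1.40 to 2.29 per 100000 in the controls and from 1.30 to 1.89 with miR-25. Its part in these low levels was not tested. With the mean negative probe subtracted, GJB1 was 1.59 (24 h) and 5.78 (48 h) per 100000 in the controls and 3.33 and 2.31 with miR-25. SOX1 was 3.00 and 4.80 in the controls and 3.29 and 0.28 with miR-25.

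CD4 went from 8.02 ± 1.56 to 15.7 ± 9.15 per 100000 in the controls (1.96-fold) and from 10.4 ± 1.43 to 12.4 ± 6.32 with miR-25 (1.19-fold), and the times overlapped in both arms. By the positive probes the ratio of 24 h to 48 h was 0.819 in the controls and 1.16 with miR-25, so that the direction with miR-25 turned with the scaling. Without the pair of 48 h replicate 1, the ratios of 48 h to 24 h per gene total were 2.58 and 1.54. POU5F1 was 0.827-fold in the controls and 0.900-fold with miR-25, with overlap in both, and by the positive probes it was 1.97-fold and 1.59-fold higher at 24 h. Its ratios of 48 h to 24 h per gene total were 0.811 and 0.967 without the pair of 48 h replicate 1. The plot of scaled levels by group shows the step of MME, the low CD4 of the pair of 48 h replicate 1 and the low SOX1 of the miR-25 48 h group.

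**Figure D3:**
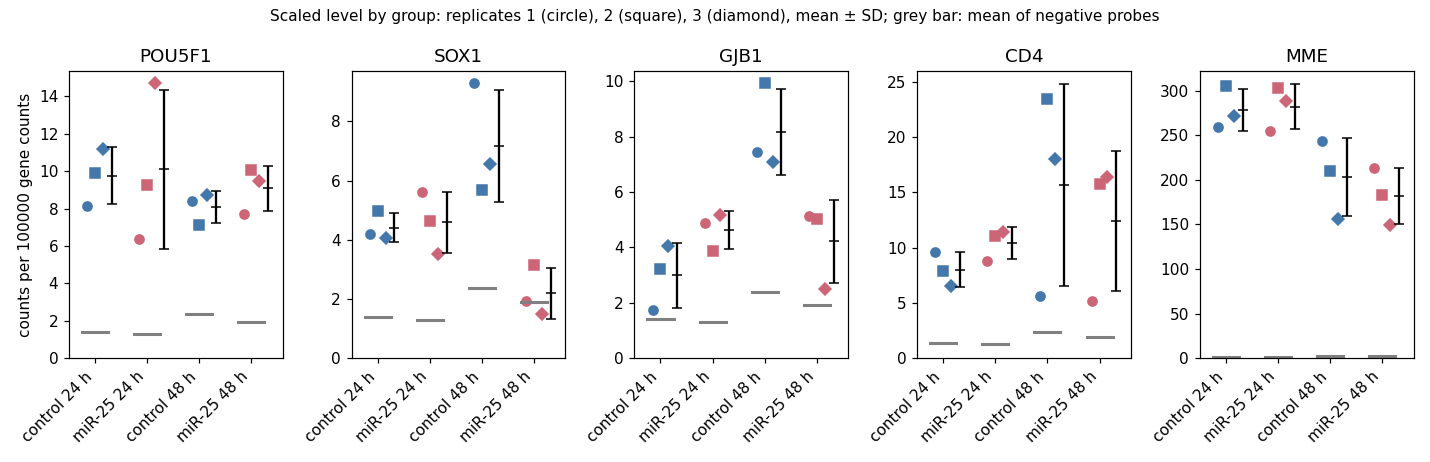
Counts per 100000 gene counts of each gene in the 4 groups (blue, control; red, miR-25), with the 3 replicates as symbols, the mean ± SD at the right and the mean of the negative probes as a grey bar. SOX1 of miR-25 48 h sits at the grey bar (2.19 ± 0.85), and MME is lower at 48 h than at 24 h in both arms.

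The question of the mimic was whether miR-25 changed these transcripts within a pair. By edgeR's quasi-likelihood test none of the 5 was called at 24 h, nor was any other gene (0 of 199, 0.0%, at an adjusted p under 0.05). Without adjustment 14 of the 199 were under 0.05, and neither DESeq2 nor limma made a call. Without 48 h replicate 1 edgeR called 3 genes at 24 h, none of them among the 5. For 48 h edgeR called 3 genes (1.51%), 1 of them SOX1. The others were FGF1, a growth factor, which rose (log2 fold change 0.38, adjusted p = 0.00272 by edgeR), and PLAU, the urokinase protease, which fell by 0.39 on the log2 scale (adjusted p = 0.0184 by edgeR). The pairs of FGF1 gave 1.59 (48 h replicate 1), 1.23 and 1.17. No rise was called with limma (pseudocount 1 or background subtracted) or without the pair block. No fall was called in these fits, with limma at pseudocount 5, with DESeq2, with reference-gene scaling or with a filter at a mean of 20 counts.

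SOX1 was lower with miR-25 in all 3 pairs at 48 h, with ratios of 0.207, 0.553 and 0.228, as were 18.6% of all genes in all 3 pairs. The log2 fold change was -1.70 (SE 0.44), with an adjusted p of 0.0452 by edgeR. It rests on 30 counts in the controls and 11 in the miR-25 samples, a ratio of summed shares of 0.307 (exact 95% interval 0.139 to 0.630, counting error only), and the lower group lay at the level of the negative probes. The call held in 5 of 15 settings, with an adjusted p of 0.0314 to 0.274 over them. It was lost with DESeq2 (0.140), without the pair block in edgeR (0.142), and in edgeR without 48 h replicate 1 (0.248), 48 h replicate 3 (0.209) or 24 h replicate 3 (0.0579). With the negative probes entered in the fit, its adjusted p by edgeR was 0.0516 and 0 of the 8 negative probes were called. At 24 h the ratios of SOX1 were 1.34, 0.932 and 0.874 (log2 fold change 0.08, adjusted p = 0.974 by edgeR).

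GJB1 was higher with miR-25 in all 3 pairs at 24 h, as were 21.6% of all genes, and lower in all 3 pairs at 48 h, as were 18.6%. In the first pair at 48 h both samples had 8 counts, so that ratio differs from 1 only through the gene total. Its ratios at 24 h were 2.82, 1.2004 and 1.28, those at 48 h 0.691, 0.506 and 0.351. Neither passed the test: the log2 fold change was 0.66 (SE 0.30, adjusted p = 0.618 by edgeR) at 24 h and -0.99 (SE 0.37, adjusted p = 0.215) at 48 h. The wide ratio of the first pair at 24 h came from 7 and 20 counts, and without that pair the log2 fold change was 0.31.

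CD4 had ratios of 0.911, 1.40 and 1.75 at 24 h and 0.922, 0.670 and 0.913 at 48 h, where all 3 pairs were lower (log2 fold change 0.35 and -0.32, adjusted p = 0.895 and 0.681 by edgeR). MME, with the highest counts, had the tightest ratios. The pairs at 24 h gave 0.983, 0.995 and 1.06, and those at 48 h, all lower, gave 0.877, 0.870 and 0.960. The fitted log2 fold changes of 0.02 (SE 0.05) and -0.15 (SE 0.07) had an adjusted p of 0.974 and 0.451 by edgeR. The ratios of CD4 and MME are per gene total, by which 18.6% of all genes were lower in all 3 pairs at 48 h. In unscaled counts at 48 h, control to miR-25, MME went from 261 to 331, 296 to 291 and 286 to 301. CD4 went from 6 to 8, 33 to 25 and 33 to 33. Scaling by the positive probes was not done for the pairs. POU5F1 had ratios of 0.778, 0.932 and 1.31 at 24 h and 0.922, 1.42 and 1.08 at 48 h, with no direction shared by the pairs (adjusted p = 0.985 and 0.790 by edgeR).

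**Figure D4:**
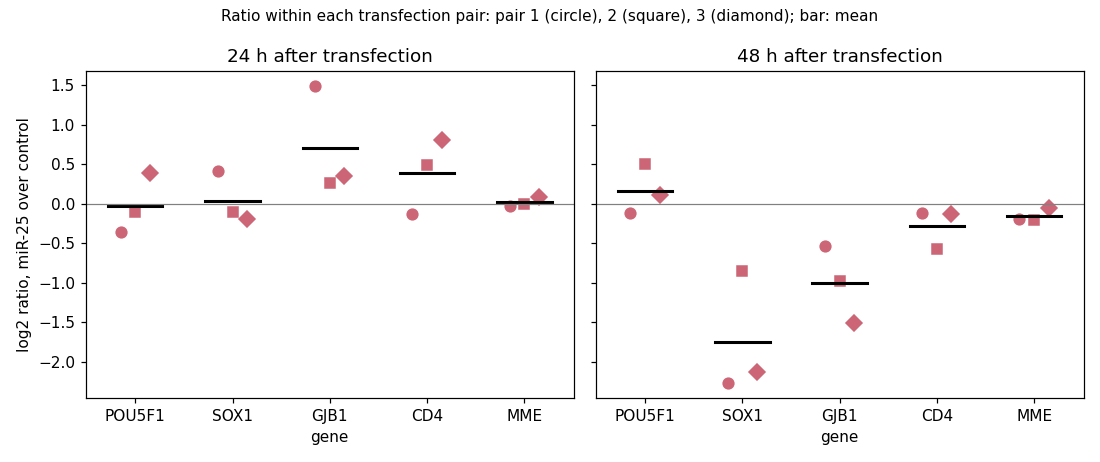
Log2 ratio of miR-25 over control in each of the 3 transfection pairs at 24 h and 48 h, with the mean as a bar. SOX1, GJB1, CD4 and MME lie below 0 in all 3 pairs at 48 h, and the pairs of MME lie between -0.20 and 0.09 over both times.

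Whether the effect of miR-25 differed between the time points was tested as an interaction, in which edgeR called 1 of 199 genes (0.503%), FGF1, and 0 of the 5. The difference (48 h minus 24 h, log2) was -1.78 (SE 0.51) for SOX1 and -1.65 (SE 0.48) for GJB1, each with an adjusted p of 0.104 by edgeR. Without the pair of 48 h replicate 1 these were -1.53 and -1.86 (adjusted p = 0.285 and 0.0951 by edgeR). For CD4 and MME the difference over all samples was -0.66 and -0.17 (adjusted p = 0.687 for both by edgeR) and for POU5F1 0.15 (adjusted p = 0.977).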

How the data were processed

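The authors deposited raw counts per probe from the nCounter Dx Stem Cell Panel (nSolver Analysis Software 3.0 per the submitters' processing notes), without background correction or scaling; the lowest count in every sample is 1. Names of 193 genes came from the panel sheet and of 6 from RefSeq. The genes and marker lists were chosen with earlier results of these data known.

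All 199 genes entered edgeR's quasi-likelihood test (version 4.0.16 in R 4.3.3) without a filter. Library size was the sum over genes, transfection pairs were blocks, and p-values had Benjamini-Hochberg adjustment (threshold 0.05). The SE given with edgeR values was derived as the absolute log2 fold change divided by the square root of the test's F statistic. For 48 h against 24 h each arm was fitted alone without a block. Pairs share a replicate letter and a transfection efficiency in the labels, and deviations from the group means correlated within pairs (r = 0.36 to 0.91). Unmatched samples were not compared and 48 h replicate 1 stood apart in both arms, so these r do not test the pairing. Replicates differed by more than sampling noise (chi-square per degree of freedom 2.30 to 63.3). The fit was tested on simulated data with known changes. The simulated counts had the same dispersion for every gene and no outlying pair, so the shares may not hold for these data. Of genes with a mean under 60 counts, it called 16.7% of 2-fold (4 of 24) and 37.5% of 3-fold changes (9 of 24) at 48 h. At 24 h it called 45.5% and 73.1% of them. A missing call at such counts therefore does not show that a gene was unchanged. DESeq2 1.42.0, limma 3.58.1, other scalings, a filter at a mean of 20 counts, other background levels and left-out replicates were alternatives.

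Besides the 5 genes, the text names the genes of each list above background in all samples or highest, the neighbours in level, the 3 genes most alike and those called with miR-25; further list genes were named after their values were seen, and a Y-linked neighbour of POU5F1 was left out.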

Additional observations from a re-analysis of the deposited data

Results flagged for a closer look

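SOX1 ran opposite ways between 24 h and 48 h in the 2 arms, and its miR-25 effect at 48 h minus that at 24 h was -1.78 on the log2 scale (adjusted p = 0.104 by edgeR). GJB1 was higher with miR-25 in all 3 pairs at 24 h (as were 21.6% of all genes) and lower in all 3 at 48 h (as were 18.6%). The difference was -1.65 (adjusted p = 0.104 by edgeR). These ratios are per gene total, and in 48 h replicate 1 both samples had 8 counts. For FGF1 the test of the difference itself passed, at 0.40 (adjusted p = 0.0233 by edgeR), but no gene was called in it without 24 h replicate 1, 24 h replicate 3 or 48 h replicate 1.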

How the results depend on the processing

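At 48 h, where 3 genes were called with miR-25, edgeR called 1 with reference-gene scaling and 1 with the filter, DESeq2 1, limma 0 (pseudocount 1), 1 (pseudocount 5) and 0 (background subtracted), and edgeR 0 with no replicate block (2 to 4 with a pair left out). With a pair left out the count at 24 h was 0 to 3 (3 without 48 h replicate 1) and that for the difference 0 to 2; for the difference the filter, the limma fits and no replicate block each gave 0 in place of 1. For 48 h against 24 h in the controls (9 genes), positive-probe scaling gave 24, DESeq2 35, the replicate block 0 and a left-out replicate 1 to 58, the highest without 48 h replicate 1. With miR-25 (6 genes) the values were reference genes 3, positive probes 44, filter 10, DESeq2 41, limma 1 (pseudocount 1) and 2 (background subtracted), replicate block 0 and 0 to 60 with a replicate left out, again highest without 48 h replicate 1. Deviations from the group means did not correlate between 24 h and 48 h samples of the same replicate number (r = -0.10 to 0.01). With 3 samples per group this cannot decide whether the numbers pair them. At 24 h the sign of small miR-25 effects turned. POU5F1 was -0.00821 with TMM, -0.0210 with DESeq2, -0.0158 with limma (pseudocount 1) and -0.00515 with background subtracted, and -0.22 (without 24 h replicate 3) to 0.17 with a pair left out. MME was -0.0182 with TMM, -0.0112 with DESeq2 and -0.0162 (without 24 h replicate 3) to 0.0382 with a pair left out, and SOX1 -0.14 (without 24 h replicate 1) to 0.17. SOX1 and GJB1 did not pass the filter and POU5F1, CD4 and MME did. The cause of these differences was not tested, beyond fewer genes or samples where these were left out. Counts of 3 to 54 limit all of the genes but MME.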
